A study of Homo sapiens with 32 samples.

Results

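LBH, KANK4 and MYO7B are 3 of the 17788 genes in a count table of 32 RNA-seq libraries from MCF10A, an immortalized line of human breast epithelium without tumour-forming capacity that loses epithelial traits under the cytokine TGFβ1. They were chosen by their readout in cells with wild-type JUNB: transcripts were close to absent under solvent and abundant under TGFβ1. The question here is how far each gene is switched on when JUNB, one partner in AP-1 dimers that regulate transcription, has been edited. Because WT values selected the genes, every comparison that contains WT libraries is given as a description without a test, and only comparisons within the edited clones were tested. All 3 genes passed the low-count filter that left 14865 genes for testing.

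The libraries form 8 groups of 4. WT denotes the MCF10A clones 2 and 27, labelled JUNB WT. The clones 1 and 65, labelled as JUNB knock-out and called mut here, carry extended CRISPR/Cas9 deletions in JUNB. These clones still make a little of a shortened JUNB polypeptide that TGFβ1 can induce. Each clone grew from 1 sorted cell, so that 2 clones stand for each genotype. Cells of all groups were kept with horse serum, EGF, hydrocortisone, cholera toxin and insulin. They received solvent (BSA in PBS, labelled as time 0) or TGFβ1 at 5 ng/ml for 6, 24 or 72 h. There were 2 replications per clone. Per the study, solvent was given for 72 h and all samples were collected at the same time after seeding. A library is named by its clone and replication number, such as mut solvent 1-2, and the 4 libraries that share both numbers are called a series.

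LBH (limb bud and heart) is a small transcriptional co-regulator that is known as a target of WNT signalling and as a factor of basal mammary epithelial cells. KANK4 belongs to the KANK family of ankyrin-repeat proteins. KANK proteins bind talin at the rim of integrin adhesions and connect these adhesions with a cortical protein complex that anchors microtubules. MYO7B is an unconventional myosin, an actin motor that is best known from the tips of brush border microvilli in intestine and kidney, where it holds the cadherins that link neighbouring microvilli. TGFβ1 acts through receptor kinases and SMAD proteins, which frequently work together with AP-1 on regulatory DNA.

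In GENCODE 44 (GRCh38), LBH (ENSG00000213626) lies on the plus strand of chromosome 2 from 30231534 to 30323730, with 9 transcripts and 4532 bases of exon. KANK4 (ENSG00000132854) lies on the minus strand of chromosome 1 from 62236165 to 62319434, with 4 transcripts and 6814 bases of exon. MYO7B (ENSG00000169994) lies on the plus strand of chromosome 2 from 127535683 to 127637729, with 7 transcripts and 8910 bases of exon. An RNU6-371P copy lies within KANK4 and a lncRNA (ENSG00000272789) opposite MYO7B, but neither is in the count table and neither shares an exon base with the gene.

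The 250 bases before each gene's start are shown because the 3 genes were chosen for a shared response, so that their start regions can be compared by eye (RefSeq, GRCh38.p14, each printed 5′ to 3′ on the gene's own strand). The windows are chr2:30231284-30231533 for LBH, chr1:62319435-62319684 for KANK4 and chr2:127535433-127535682 for MYO7B. Capitals mark matches on either strand to an AP-1 motif (TGANTCA), a SMAD motif (CAGAC), an E-box (CAGGTG) or a TATA box (TATAAA), 4 patterns that were picked with these sequences in view.
LBH: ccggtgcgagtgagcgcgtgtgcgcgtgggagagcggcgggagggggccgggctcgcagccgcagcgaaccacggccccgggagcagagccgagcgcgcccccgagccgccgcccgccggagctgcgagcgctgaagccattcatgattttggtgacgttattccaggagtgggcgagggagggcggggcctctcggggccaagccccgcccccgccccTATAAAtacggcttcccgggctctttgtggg
KANK4: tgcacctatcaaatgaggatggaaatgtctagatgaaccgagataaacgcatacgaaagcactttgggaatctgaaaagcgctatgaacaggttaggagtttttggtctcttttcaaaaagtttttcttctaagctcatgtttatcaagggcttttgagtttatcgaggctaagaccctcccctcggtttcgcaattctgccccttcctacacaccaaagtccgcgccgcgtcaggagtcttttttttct
MYO7B: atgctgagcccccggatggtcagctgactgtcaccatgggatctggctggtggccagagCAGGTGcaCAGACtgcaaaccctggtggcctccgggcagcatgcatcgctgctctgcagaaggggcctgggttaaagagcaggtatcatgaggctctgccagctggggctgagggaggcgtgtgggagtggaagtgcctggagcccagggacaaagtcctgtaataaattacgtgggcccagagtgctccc

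The 3 windows differ more than they match. G and C make up 72.8% of the LBH window, 43.6% of the KANK4 window and 61.2% of the MYO7B window, beside a median of 58.0% over 35116 RefSeq start windows of the same length. LBH holds a TATAAA from 31 to 26 bases before its start, a pattern found in 10.7% of the windows. MYO7B holds a CAGGTG and, 2 bases further on, a CAGAC, patterns found in 17.5% and 38.0% of the windows. KANK4 holds none of the 4 patterns, and none of the 3 windows holds TGANTCA, which occurs in 6.57% of all windows. A further RefSeq start of MYO7B (window chr2:127619755-127620004) has a CAGAC and a TATAAA match and is not shown. These matches describe letters in these windows only, and sites elsewhere were not searched. The study reported JUNB binding under TGFβ1 at regions with AP-1 motifs that it assigned to KANK4 and MYO7B.

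Library totals lay between 39702412 and 54651906 counts, so that the floor of 3 counts equals 0.0549 to 0.0756 CPM (counts per 1000000 counts of the library), counting error only. All 8 epithelial markers examined were detected, with median abundances from 38.5 CPM (EPCAM) to 5834 CPM (KRT5). Of the markers of other cells, COL3A1, DPT and THY1 (fibroblasts), PTPRC and CD3E (immune cells) and VWF (endothelium) had a median of 0 CPM, while DCN, CD14 and KDR were detected at medians of 14.8, 10.0 and 14.1 CPM. JUNB itself spanned 69.2 to 172 CPM in mut solvent and 89.7 to 117 CPM in WT solvent, so that its counts do not check the genotype labels.

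1 library stands apart in all 3 genes and touches every change in mut cells. The library mut solvent 1-2 had 2.92 CPM of LBH, 3.44 CPM of KANK4 and 1.44 CPM of MYO7B, which is 6.20, 29.9 and 3.30 times the mean of the other 3 mut solvent libraries. Its 6 h partner, mut 6 h 1-2, had the lowest LBH and KANK4 values of the 4 mut libraries at that time. Changes in mut cells are therefore given with this library and without it, and the cause of its values was not tested.

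LBH was off or barely detected without TGFβ1 and rose in both genotypes. In WT solvent, LBH had 0.180 CPM (2-1), 0 CPM (2-2), 0.713 CPM (27-1) and 0.552 CPM (27-2). After 6 h the WT libraries had 11.6 CPM (2-1), 10.9 CPM (2-2), 11.1 CPM (27-1) and 11.3 CPM (27-2), the narrowest spread of any LBH group. They reached 29.9, 25.1, 37.0 and 39.8 CPM at 24 h in the same order, and 24.8, 24.7, 29.0 and 25.5 CPM at 72 h. Clone 27 thus exceeded clone 2 in both replications at 24 h. In series 2-2, whose solvent library had no LBH count, the level at 72 h was at least 328-fold higher than the floor of 0.0756 CPM.

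In mut solvent, LBH had 0.466 CPM (1-1), 2.92 CPM (1-2), 0.505 CPM (65-1) and 0.442 CPM (65-2). At 6 h the values were 14.0 CPM (1-1), 5.96 CPM (1-2), 12.0 CPM (65-1) and 10.8 CPM (65-2). The 6 h level of 10.7 ± 3.41 CPM in mut (SD, n = 4) overlapped that of 11.2 ± 0.268 CPM in WT, and the mut mean was 95.1% of the WT mean. At 24 h the mut values were 24.4, 16.1, 16.2 and 16.4 CPM in the same order, and at 72 h they were 14.7, 14.1, 9.71 and 15.2 CPM. All 4 mut libraries lay below all 4 WT libraries at both later times, a pattern that 12.1% of tested genes had at 24 h and 11.2% at 72 h. The mut mean was 55.4% of the WT mean at 24 h and 51.6% at 72 h, and single mut libraries at 72 h lay between 37.3% and 58.5%. LBH thus stood at overlapping levels in both genotypes at 6 h and at separate levels from 24 h on.

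Within mut clones, LBH rose at every time. At 6 h the log2 fold change against solvent was 3.80 ± 0.56 (SE, limma-voom adjusted p = 0.000104). It stood at 4.61 ± 0.55 after 24 h (adjusted p = 7.66e-07) and at 4.18 ± 0.55 after 72 h (adjusted p = 2.19e-06). These comparisons share their solvent libraries. Each treated mut library lay above the highest solvent library, but how many of all tested genes do so was not counted. Without mut solvent 1-2 the changes were 4.42 ± 0.70, 5.23 ± 0.69 and 4.80 ± 0.70, with adjusted p-values of 0.000467, 5.58e-06 and 1.28e-05.

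KANK4 rose in mut clones and yet stayed far below WT. In WT solvent it had 0.856 CPM (2-1), 0.201 CPM (2-2), 0.881 CPM (27-1) and 0.401 CPM (27-2). At 6 h the WT libraries had 32.2, 31.3, 24.0 and 19.0 CPM in that order. At 24 h they had 75.4, 80.7, 68.3 and 60.4 CPM, and at 72 h they had 63.4, 77.3, 50.8 and 40.4 CPM. Here clone 2 exceeded clone 27 at each time under TGFβ1, the opposite order to that of LBH at 24 h. Whether the clones differ was not tested, since WT values chose the genes.

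In mut solvent, KANK4 had no count in 1-1, 3.44 CPM in 1-2, 0.0631 CPM (3 counts) in 65-1 and 0.282 CPM in 65-2. At 6 h the mut libraries had 9.39 CPM (1-1), 3.06 CPM (1-2), 7.09 CPM (65-1) and 7.14 CPM (65-2). They rose to 19.4, 13.1, 13.7 and 13.3 CPM at 24 h in this order and had 11.6, 16.2, 7.98 and 10.7 CPM at 72 h. The mut means were 25.1%, 20.9% and 20.1% of the WT means at the 3 times, with no overlap between genotypes at any of them (at 6 h, 9.84% of tested genes had all mut below all WT libraries). At 72 h the highest mut library reached 16.2 CPM and the lowest WT library 40.4 CPM.

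In mut clones KANK4 rose by 5.27 ± 1.20 (SE, log2) within 6 h (limma-voom adjusted p = 0.00869). The change reached 6.50 ± 1.19 after 24 h (adjusted p = 0.000241) and stood at 6.14 ± 1.19 after 72 h (adjusted p = 0.000329). These folds rest on a solvent level near the floor and their size depends on the method. The quasi-likelihood fit of edgeR gave 2.92, 4.10 and 3.75 after 6, 24 and 72 h, and DESeq2 gave 2.89, 4.08 and 3.71, past the threshold each time. For LBH the same methods gave 3.38, 4.18 and 3.73, and 3.37, 4.18 and 3.72. Without mut solvent 1-2 the KANK4 changes by limma-voom were 6.66 ± 1.70, 7.89 ± 1.69 and 7.53 ± 1.69 (adjusted p = 0.0289, 0.0016 and 0.00186). Without mut solvent 1-1, the library at 0, the KANK4 changes fell to 3.96, 5.19 and 4.83. In series 1-1 itself, KANK4 at 72 h was at least 183-fold higher than the floor of 0.0635 CPM. Summing the replications of a clone gave 3.65 at 6 h with an adjusted p of 0.064, so that the early rise did not pass the test over clones.

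MYO7B, by contrast, passed no test in mut clones. Its WT solvent libraries had 0.270 CPM (2-1), 0.101 CPM (2-2), 0.0839 CPM (27-1) and 0.401 CPM (27-2). TGFβ1 gave 2.09, 2.19, 1.10 and 2.43 CPM in WT at 6 h in this order, 8.53, 7.58, 3.82 and 10.7 CPM at 24 h, and 8.41, 12.5, 5.41 and 8.86 CPM at 72 h. WT 27-1 was the lowest library at each time under TGFβ1. Unlike LBH and KANK4, whose WT means peaked at 24 h, the MYO7B mean was highest at 72 h (7.66 ± 2.87 CPM at 24 h and 8.79 ± 2.91 CPM at 72 h, SD, n = 4 each), but the libraries of these times overlapped.

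In mut solvent, MYO7B had 0.444 CPM (1-1), 1.44 CPM (1-2), 0.379 CPM (65-1) and 0.483 CPM (65-2), or 18 to 64 counts. At 6 h the mut libraries had 0.771 CPM (1-1), 0.820 CPM (1-2), 0.764 CPM (65-1) and 0.437 CPM (65-2). They had 1.40, 0.799, 1.13 and 0.843 CPM at 24 h and 0.776, 0.992, 1.09 and 2.15 CPM at 72 h. Mut solvent 1-2 exceeded all treated mut libraries but mut 72 h 65-2, so that the groups overlapped at each time. At 6 h they overlapped without it too, since mut 6 h 65-2 lay below mut solvent 65-2 and 1-1. At 24 and 72 h all 4 treated libraries lay above the other 3 solvent libraries, an order whose share over all tested genes was not counted.

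For MYO7B in mut clones the log2 fold change was 0.20 ± 0.68 (SE) after 6 h (limma-voom adjusted p = 0.901). It was 0.81 ± 0.64 after 24 h (adjusted p = 0.385) and 0.96 ± 0.61 after 72 h (adjusted p = 0.273). Without mut solvent 1-2 the values were 0.61 ± 0.77, 1.22 ± 0.74 and 1.37 ± 0.72, with adjusted p-values of 0.752, 0.258 and 0.183. Over all settings tried, the adjusted p at 72 h ranged from 0.0802 (DESeq2) to 0.515 (without mut 72 h 65-2). A rise of the size measured therefore could not be told from the spread at this depth. After 6, 24 and 72 h the mut means were 35.7%, 13.6% and 14.2% of the WT means. All mut libraries lay below all WT libraries at each time, as they did in 9.84%, 12.1% and 11.2% of tested genes.

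**Figure D1:**
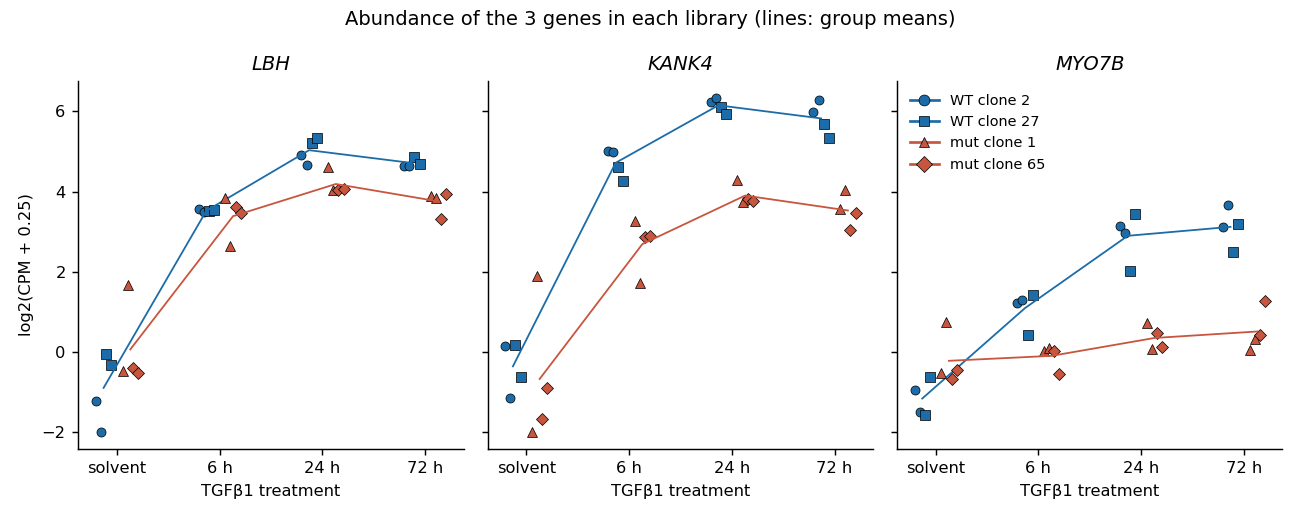
Abundance of LBH, KANK4 and MYO7B in each of the 32 libraries as log2(CPM + 0.25), by treatment, with WT in blue and mut in red, symbols for clones and lines through the group means of 4 libraries. LBH and KANK4 rise in both genotypes, whereas MYO7B stays between 0.379 and 2.15 CPM in mut libraries, and the raised mut solvent point of each panel is 1-2.

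Across all genes, adjusted p-values under 0.05 with a higher level in mut cells were found for 2.06%, 6.75% and 7.81% of tested genes after 6, 24 and 72 h, and with a lower level for 4.94%, 17.1% and 16.3%. Of the 3 genes, LBH and KANK4 were called higher at each of the 3 times. The median log2 change over all tested genes in mut was -0.06, -0.10 and -0.09 at the 3 times. Bulk RNA cannot tell fewer responding cells from less RNA per cell, which applies to each level compared here.

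The steps between treatment times were smaller. In mut clones, LBH rose by 0.81 ± 0.23 (SE, log2) and KANK4 by 1.23 ± 0.34 from 6 to 24 h (limma-voom adjusted p = 0.0495 and 0.041), in a comparison where 1.30% of genes were called higher. Both calls were fragile. The LBH call held in 10 of 32 fits that left out 1 library each, with adjusted p-values from 0.0344 to 0.225. It was lost without any library other than mut solvent 1-2, mut 6 h 1-1, mut 24 h 1-2, mut 72 h 65-1 and 65-2, WT solvent 2-2, 27-1 and 27-2, and WT 24 h 2-2 and 27-2. The KANK4 call held in 25 of 32, with values from 0.0279 to 0.178. KANK4 lost its call without mut solvent 65-1, mut 6 h 1-2, 65-1 or 65-2, or mut 24 h 1-1, 65-1 or 65-2. With each series entered as a replicate block, these steps became 0.84 and 1.36 (adjusted p = 0.00738 and 0.00244). MYO7B had 0.60 ± 0.62 (adjusted p = 0.666) for this step.

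From 24 to 72 h none of the 3 genes passed the test in mut, where limma-voom called 0.693% of genes higher and 0.619% lower. The log2 differences were -0.43 ± 0.22 (SE) for LBH, -0.36 ± 0.29 for KANK4 and 0.15 ± 0.55 for MYO7B, with adjusted p-values of 0.319, 0.578 and 0.931. The unadjusted p-values were 0.0548, 0.231 and 0.786. In WT the same differences were -0.33 ± 0.18, -0.33 ± 0.19 and 0.26 ± 0.24. For the step from 6 to 24 h, WT had 1.54 ± 0.21 for LBH, 1.44 ± 0.21 for KANK4 and 1.88 ± 0.35 for MYO7B.

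At 6 h the genes had covered different parts of their way. The mean LBH level at 6 h was 34.1% of its highest group mean in WT and 58.5% in mut. For KANK4 the shares were 37.4% in WT and 44.9% in mut. MYO7B stood at 22.2% of its highest mean in WT, while in mut the solvent mean was already 54.8% of the highest mean, including mut solvent 1-2.

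Set against WT, the 3 genes stayed lower in mut by different amounts and from different times on. The log2 difference of mut minus WT at 72 h was -0.96 ± 0.21 (SE) for LBH, -2.29 ± 0.25 for KANK4 and -2.88 ± 0.40 for MYO7B. At 24 h it was -0.86 ± 0.19, -2.26 ± 0.24 and -2.76 ± 0.44. At 6 h it was -0.12 ± 0.25 for LBH, -2.05 ± 0.32 for KANK4 and -1.48 ± 0.56 for MYO7B. KANK4 therefore showed nearly its whole deficit at the earliest time, LBH showed none of that size at 6 h, and the MYO7B deficit grew from 6 to 24 h.

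In solvent the mut mean over all libraries was above the WT mean for each gene. For KANK4 this direction depended on mut solvent 1-2 and on the method. Solvent levels enter the size of each fold. Mut solvent means were 300% of the WT mean for LBH, 162% for KANK4 and 320% for MYO7B, with overlapping libraries in each case. These percentages include mut solvent 1-2. Without it the mut means were 0.471 CPM for LBH, 0.115 CPM for KANK4 and 0.435 CPM for MYO7B. The WT means were 0.361, 0.585 and 0.214 CPM in the same order. The fitted log2 difference in solvent was 1.99 ± 1.07 (SE) for LBH, -1.69 ± 1.43 for KANK4 and 1.67 ± 0.92 for MYO7B. For KANK4 the sign of this fit is opposite to that of the means over all libraries. The sign also turns with the method, with 0.61 by edgeR, 0.69 by DESeq2 and -0.19 over sums of replications. Without mut solvent 1-2 the fitted differences were 1.38 ± 1.11, -3.09 ± 1.84 and 1.26 ± 0.98. The KANK4 value was -0.38 without mut solvent 1-1, and the LBH value was 0.78 without WT solvent 2-2 and 2.72 without WT solvent 27-1.

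The change in mut minus the change in WT at 72 h was -2.95 ± 1.09 (SE, log2) for LBH, -0.60 ± 1.45 for KANK4 and -4.55 ± 1.01 for MYO7B. Without mut solvent 1-2 it was -2.34 ± 1.12 for LBH, 0.80 ± 1.85 for KANK4 and -4.14 ± 1.06 for MYO7B. The LBH value was -1.74 without WT solvent 2-2 and -3.68 without WT solvent 27-1. The KANK4 value was not stable. It was -3.01 by edgeR, -3.10 by DESeq2, -2.09 over sums of replications, -1.36 with the replicate block and -1.91 without mut solvent 1-1. With edgeR and DESeq2 the LBH values were -2.55 and -2.61, so that the order of LBH and KANK4 by this measure turned with the method. For MYO7B both fold and level were lower in mut, and for LBH the level was lower at 24 and 72 h but not at 6 h.

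Marker sums differed between genotypes, for mammary epithelium as well as for other cell types. The epithelial sum was 10480 to 12591 CPM in mut solvent and 7095 to 9480 CPM in WT solvent. At 72 h it was 8960 to 11819 CPM in mut and 5798 to 8864 CPM in WT. The summed immune markers, nearly all of it CD14, were 22.1 to 28.1 CPM in mut solvent and 9.98 to 19.0 CPM in WT solvent, and 7.27 to 13.5 CPM against 2.33 to 3.43 CPM at 72 h. The endothelial sum, nearly all KDR, was 21.1 to 27.0 CPM in mut solvent against 5.62 to 15.1 CPM in WT solvent, and 13.1 to 20.9 CPM against 2.94 to 3.78 CPM at 72 h. The fibroblast sum, mostly DCN, was 11.7 to 19.3 CPM against 4.59 to 13.1 CPM in solvent and 26.0 to 33.9 CPM against 5.58 to 16.3 CPM at 72 h. The defining markers PTPRC, VWF and COL3A1 did not exceed 0.0498, 0.140 and 0.0804 CPM in any library. A part of these genes in the differences of LBH, KANK4 and MYO7B was not tested.

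Per length, the order of LBH and KANK4 turned between genotypes. In WT at 24 h, KANK4 stood at 10.4 ± 1.29 CPM per kb of exon, LBH at 7.27 ± 1.48 and MYO7B at 0.859 (SD, n = 4). In mut at 24 h, LBH stood at 4.03 ± 0.90 CPM per kb, KANK4 at 2.18 ± 0.44 and MYO7B at 0.117. At 72 h WT had 8.51 ± 2.34 for KANK4 and 5.74 ± 0.45 for LBH, and mut had 2.96 ± 0.56 for LBH and 1.71 ± 0.50 for KANK4. In solvent, LBH and KANK4 lay within each other's spread in both genotypes, at 0.0797 and 0.0858 CPM per kb in WT and 0.239 and 0.139 in mut.

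The change was also followed within each series, from the series' own solvent library. In the 4 WT series, LBH at 72 h changed by 7.02 (2-1), 10.94 (2-2), 5.32 (27-1) and 5.50 (27-2) on the log2 scale, and in the mut series by 4.95 (1-1), 2.27 (1-2), 4.24 (65-1) and 5.07 (65-2). For KANK4 the WT values were 6.19, 8.50, 5.83 and 6.61, and the mut values 10.10, 2.24, 6.76 and 5.20. For MYO7B they were 4.90, 6.79, 5.84 and 4.42 in WT and 0.79, -0.53, 1.50 and 2.13 in mut. The LBH value of 2-2 and the KANK4 value of 1-1 start from a library with no count and depend on the 0.5 counts added. In MYO7B all mut series lay below all WT series at each time, whereas for KANK4 the series other than 1-2 intermingled. Large WT changes were a ground for choosing the genes, and the share of all genes with such a separation was not counted.

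**Figure D2:**
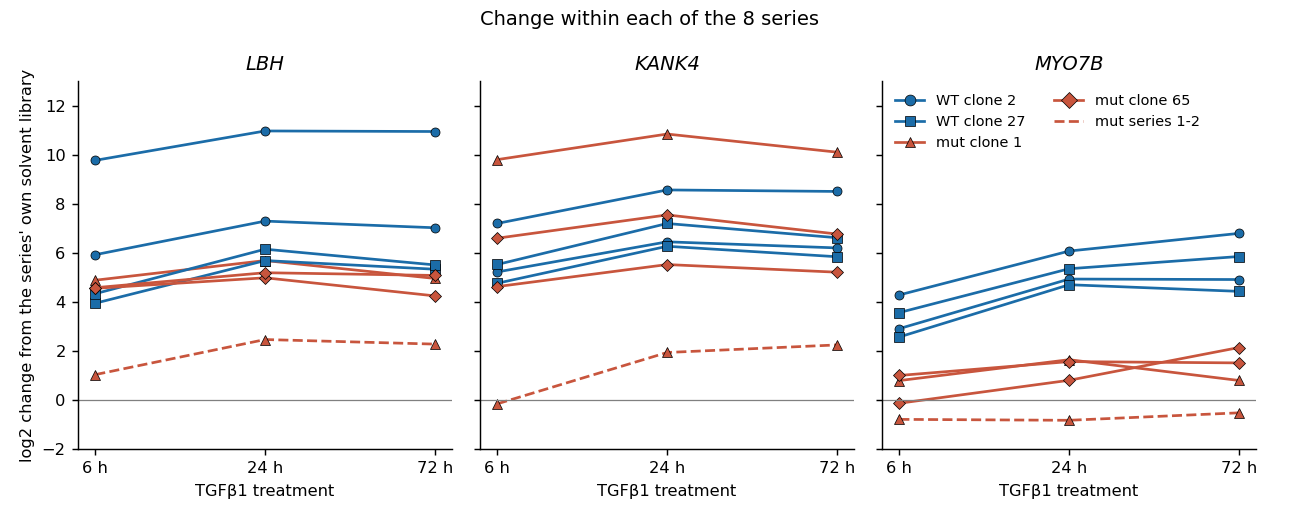
Log2 change from the series' own solvent library at 6, 24 and 72 h (counts plus 0.5, scaled by library total), with 1 line per series, WT in blue and mut in red. Series 1-2 (dashed) is the lowest line in each panel, and the highest LBH and KANK4 lines (WT 2-2 and mut 1-1) start from solvent libraries with no count.

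The mut clones 1 and 65 were compared with each other, 2 libraries of each per treatment. In clone 1 the limma-voom change at 72 h was 3.65 ± 0.60 (SE) for LBH (adjusted p = 0.000349), 6.25 ± 1.48 for KANK4 (adjusted p = 0.00679) and 0.15 ± 0.86 for MYO7B (adjusted p = 0.935). In clone 65 it was 4.66 ± 0.84 for LBH (adjusted p = 0.00126), 5.97 ± 1.59 for KANK4 (adjusted p = 0.0195) and 1.83 ± 0.95 for MYO7B (adjusted p = 0.227). LBH and KANK4 thus rose in both clones at 72 h, and MYO7B passed the test in neither. The share of all genes called within a single clone is not given here, for 72 h or for 6 h. At 6 h only LBH in clone 65 passed (adjusted p = 0.00552), with adjusted p-values of 0.0811 for LBH in clone 1 and of 0.332 and 0.0501 for KANK4 in clones 1 and 65. The change in clone 65 minus that in clone 1 was 1.02 ± 1.03 for LBH, -0.28 ± 2.18 for KANK4 and 1.68 ± 1.28 for MYO7B. These intervals are wide, and for KANK4 the sign turns without mut solvent 65-2 (0.72) or without mut solvent 1-1 (3.98). At none of the 3 times did the clone difference pass for any gene (0% of genes by limma-voom, and 0 genes by the quasi-likelihood test of edgeR), with 187, 487 and 678 genes at an unadjusted limma p under 0.05. In solvent, 0.283% of genes were called between the clones, none of the 3 among them.

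The 3 genes were set beside all genes with their kind of WT pattern. A mean under 1 CPM in WT solvent and of at least 5 CPM in WT at 72 h was met by 15 genes, limits that were set with the values known. Of these, 7 were called higher in mut at 72 h and 0 lower, by limma-voom, with a median log2 change of 2.51. Over all tested genes 7.81% were called higher and 16.3% lower. Low solvent levels leave little room for a lower call. The mut level at 72 h was below 50% of WT in 12 of the 15, and the median was 17.8%. A high WT level at 72 h was itself a limit of the choice, which favours low percentages. In the limma-voom fit KANK4 and LBH had the largest mut changes of the 15, followed by DGKI, a diacylglycerol kinase, with 3.44 ± 1.29 (SE, adjusted p = 0.0525). At the other end stood CGB5 (1.28 ± 0.84), a subunit gene of chorionic gonadotropin, MYO7B in place 14, and the LIM-domain gene LMCD1 (0.84 ± 0.43). CGB5 shares reads with near-identical copies, and its value is uncertain. By level LBH took place 3 of these genes (51.6% of WT), whereas KANK4 with 20.1% and MYO7B with 14.2% lay near their median. With a solvent limit of 2 CPM there were 38 genes, of which 17 were called higher, with a median change of 1.85 and a median level of 22.1%.

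**Figure D3:**
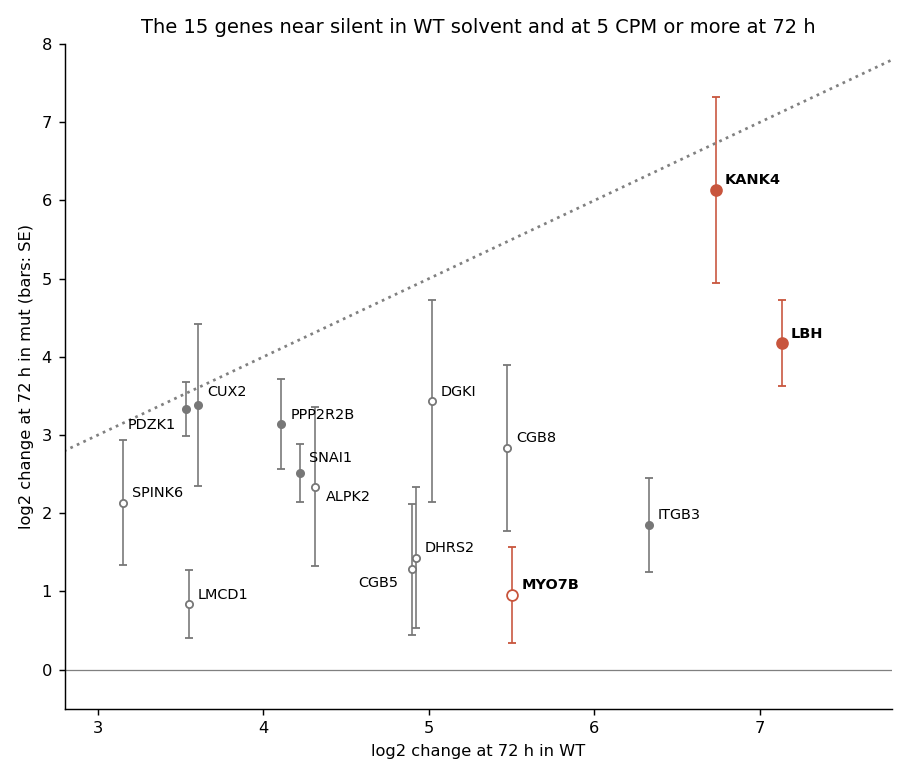
Log2 change at 72 h in mut against that in WT for the 15 genes under 1 CPM in WT solvent and at 5 CPM or more in WT at 72 h, with bars for the SE of the mut change, filled points for a limma-voom adjusted p under 0.05 in mut, and a dotted line of equal change. In this limma-voom fit KANK4 lies close to the line (6.14 in mut, 6.73 in WT), LBH below it, and MYO7B (0.96 in mut) near the lower edge, whereas for KANK4 edgeR gives 3.75 in mut and 6.76 in WT and DESeq2 3.71 and 6.81.

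The genes with the most similar pattern were different for each of the 3. Over 32 libraries, and among 12459 genes with a mean of at least 1 CPM, LBH was most like PMEPA1 (Pearson r = 0.974 of log2(CPM + 0.25)), P4HA2, SPSB1, SKIL and SNAI1 (r = 0.960). Among the 5 genes most like KANK4 were ITGB6 (r = 0.975), HRH1 and LPAR5 (r = 0.947). MYO7B was most like YIPF5 (r = 0.946), CGB5, PDGFC, PDPN and LMCD1 (r = 0.935). PMEPA1 and SKIL encode feedback regulators of TGFβ signalling, ITGB6 an integrin subunit, and SNAI1 the transcription factor SNAIL1. In mut at 72 h PMEPA1 rose by 3.05 and ITGB6 by 2.57 on the log2 scale (limma-voom adjusted p = 1.16e-09 and 2.02e-09), while YIPF5 rose by 0.30 (adjusted p = 0.00639). The points of these correlations share treatment groups and libraries.

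Among themselves, LBH and KANK4 had r = 0.941 over the 32 libraries, 0.983 over the 16 WT and 0.982 over the 16 mut libraries. LBH and MYO7B had r = 0.752 in all, 0.926 in WT and 0.589 in mut. KANK4 and MYO7B had r = 0.838 in all, 0.924 in WT and 0.639 in mut. In WT a common rise of the 3 genes is fixed by their choice, and in mut the highest of the 3 coefficients was that of LBH with KANK4.

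Genes known to work with the 3 were examined next, from lists that do not include them. Of 14 genes of the KANK family and its cortical complex, 1 was called higher and 2 lower in mut at 72 h, with a median log2 change of -0.03 beside -0.09 over all genes. These counts are near the 7.81% and 16.3% of all tested genes called higher and lower at that time. The replicate block gave 2 higher and 4 lower. PHLDB1, a membrane anchor of that complex, rose by 1.15 ± 0.13 (SE, limma-voom adjusted p = 1.63e-07). PPFIBP2, a liprin, fell by 2.21 ± 0.43 (adjusted p = 0.000325), and CLASP1, a microtubule plus-end protein, fell by 0.24 ± 0.08 (adjusted p = 0.0224), a call that is lost with TMM scaling. The KANK4 paralogues were expressed without TGFβ1. KANK1 had a mean of 149 CPM in mut solvent and 131 CPM at 72 h, KANK2 86.5 and 106 CPM, and KANK3 2.10 and 1.56 CPM, with adjusted p-values of 0.0989, 0.124 and 0.134. With the replicate block KANK1 (adjusted p = 0.0113) and KANK2 (adjusted p = 0.00312) passed. KANK2 did rise at 24 h, by 0.52 ± 0.14 (adjusted p = 0.00781).

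Of 17 tested unconventional myosins other than MYO7B, 1 was higher and 7 lower in mut at 72 h, with a median log2 change of -0.23. Over all tested genes 7.81% were called higher and 16.3% lower at that time, with a median of -0.09. MYO5C fell by 0.91 ± 0.17 (SE, limma-voom adjusted p = 0.000208), MYO18A by 0.68 ± 0.09 (adjusted p = 2.16e-06) and MYO5B by 0.66 ± 0.16 (adjusted p = 0.00353). MYO5B and MYO5C are motors of vesicle transport. The 1 higher member was MYO9B, a myosin with a RhoGAP domain, with 0.21 ± 0.07 (adjusted p = 0.0251). TMM scaling gave 5 lower calls, and the replicate block gave 2 higher and 8 lower. MYO7A, the closest paralogue of MYO7B, had 2.51 CPM in mut solvent and 3.39 CPM at 72 h (0.41 ± 0.47, adjusted p = 0.572, or 0.041 with the replicate block).

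The microvillus partners of MYO7B were mostly sparse. Of 10 listed genes, 7 were in the table and 6 passed the filter, of which ESPN, an actin bundler, fell at 72 h by 1.09 ± 0.35 (SE, limma-voom adjusted p = 0.0241). PLS1, another actin bundler, fell at 6 h by 0.39 ± 0.11 (adjusted p = 0.0341) and at 24 h by 0.32 ± 0.11 (adjusted p = 0.041), calls that TMM scaling did not give. CDHR2, a microvillar cadherin, had a mean of 0.479 CPM in mut solvent and 0.627 CPM at 72 h (adjusted p = 0.459). Limma-voom called none of the 6 higher at any of the 3 times, whereas the replicate block called EZR, a linker of membrane and actin, at 72 h (adjusted p = 0.0189). The median log2 change at 72 h was 0.07, beside -0.09 over all genes. At 6, 24 and 72 h, 2.06%, 6.75% and 7.81% of all tested genes were called higher. The shares called lower were 4.94%, 17.1% and 16.3%.

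Of 14 genes listed beside LBH, 6 rose and 2 fell in mut at 72 h, with a median log2 change of 0.32. The list holds WNT targets, regulators and markers of basal mammary cells, and LBHD1, which was not called. Over all tested genes 7.81% were called higher and 16.3% lower at that time, with a median of -0.09. LGR6, a receptor of R-spondins, rose by 3.14 ± 0.49 (SE, limma-voom adjusted p = 2.11e-05), from 0.267 to 2.06 CPM. KRT14, a basal keratin, rose by 1.58 ± 0.32 (adjusted p = 0.000568), SNAI2, the transcription factor SLUG, by 1.47 ± 0.15 (adjusted p = 4.76e-08), and NKD1, a feedback inhibitor of WNT signalling, by 1.36 ± 0.32 (adjusted p = 0.00264). The 2 that fell were the basal genes TP63 (by 0.49) and KRT5 (by 0.41). AXIN2, a general WNT target, had 0.51 ± 0.64 (adjusted p = 0.607).

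A check on the TGFβ response gave 11 of 12 genes higher in mut at 72 h and 0 lower, with a median log2 change of 1.69. Over all tested genes 7.81% were called higher and 16.3% lower at that time, with a median of -0.09. FN1 (fibronectin) rose by 3.85 ± 0.47 (SE, limma-voom adjusted p = 6.61e-07), PMEPA1 by 3.05 ± 0.25 (adjusted p = 1.16e-09) and TGFBI by 2.28 ± 0.24 (adjusted p = 6.39e-08). BAMBI alone did not pass, with 0.19 ± 0.22 (adjusted p = 0.578).

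**Figure D4:**
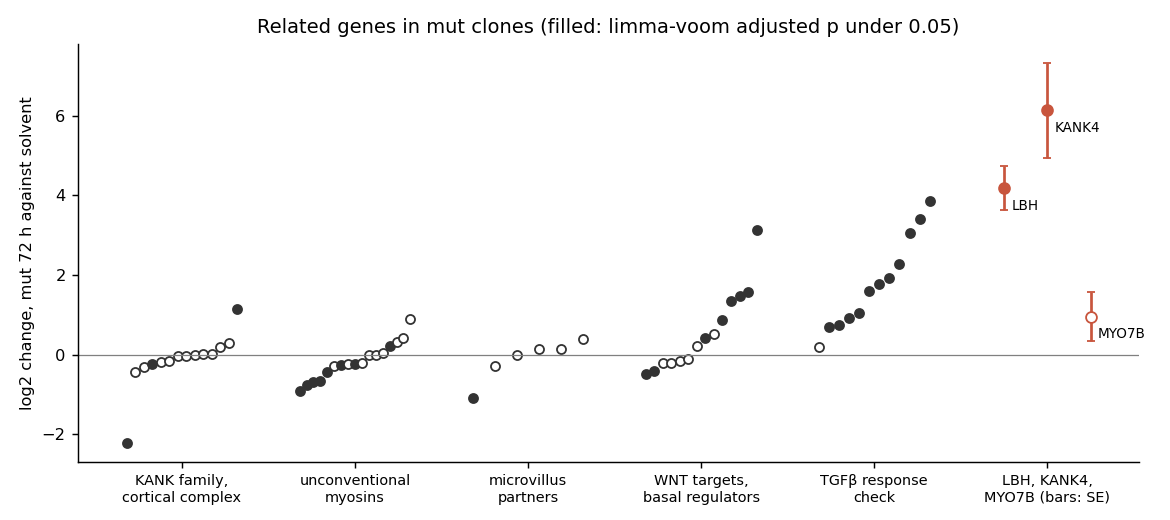
Log2 change in mut at 72 h against solvent for the tested genes of 5 related lists and, in red with SE bars, for LBH, KANK4 and MYO7B, with filled points for a limma-voom adjusted p under 0.05. In this fit LBH (4.18) and KANK4 (6.14) lie above the members of each list, and MYO7B (0.96, open) lies within the ranges of the KANK-related, WNT and basal, and TGFβ check genes.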

How the data were processed

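The deposited values are raw whole-number read counts per gene in 32 libraries. Per the study's methods, the authors trimmed read pairs with Trimmomatic and used STAR for mapping to GRCh38 (Ensembl) and for counting. The annotation release and the strand setting are not given in the sources used here, and the library kit named in the labels is not described there as stranded. No per-sample column was left out (0 columns unused). Of 17788 gene IDs, 17763 were found in GENCODE 44 and 17598 had a symbol there, from which members and coordinates were taken.

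Groups came from the labels. The low-count filter was edgeR's filterByExpr (version 4.0.16) at a minimum count of 10 and a total of 15, and the genes left were fitted with voom and limma 3.58.1 in R 4.3.3, scaled by library size, with the model ~0 + condition over all 32 libraries, as in the study. Tests are two-sided, with Benjamini-Hochberg adjustment over 14865 genes and a threshold of 0.05. Mut clones were compared in a second limma fit with a group for each clone and treatment. WT values chose the 3 genes, so that no p is given where WT enters. CPM are counts per 1000000 counts of the library. Replicates differed beyond sampling noise (chi-square of counts at least 11.6 times its degrees of freedom for each pair), and each library is a sample. The study calls its replicates independent and biological, while the labels number replications of a clone and do not mention separate cultures. The p-values measure the spread between these libraries.

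Libraries of the same clone and replication number were taken as paired on the basis of these shared numbers alone. The labels do not say whether a replication number marks a shared culture or batch across treatments. Their deviations from group means had a mean correlation of 0.303 within a series (lowest pair 0.0283) and -0.154 between series of a genotype. Subtracting the group means pushes the value between series to the negative side by construction. The contrast between these values is therefore not a test of the pairing.

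The members and gene lists were chosen with earlier results of these data known. Genes named beside the 3 were JUNB, up to 4 per list with the largest change at 72 h among those called in a mut comparison, the 5 most similar genes per member, and the 3 highest and 3 lowest mut changes of the comparable genes. KANK1, KANK3, MYO7A, CDHR2, AXIN2, BAMBI, EZR, MYO9B, TP63 and KRT5 were named outside that rule, after their values were seen. The values of 3 single genes of the rule are left out.

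Alternatives were TMM factors, the quasi-likelihood test of edgeR, DESeq2 1.42.0, the unfiltered table, genes with a mean count from 50 upwards, fits on the compared groups alone, the series as a replicate block (also with TMM), sums of replications, thinned counts, removal of series 1-2 or 27-2, and leaving out each library. The fits were tested on simulated data. Figures were drawn with matplotlib 3.10.9.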

Additional observations from a re-analysis of the deposited data

Results flagged for a closer look

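In each group of 4 libraries the distance of the highest or lowest CPM value from its neighbour was set against the group's range, and a library was marked where this share exceeded Dixon's 95% critical value. Of 24 groups, 6 were marked. Chance marks about 1 in 20 where values are independent and normally distributed. Here each group holds replications of the same clones, and the 3 genes share their libraries. The 6 of 24 can therefore not be set against that rate. The library mut solvent 1-2 was marked in all 3 genes, as the highest of its group, with 2.92 CPM for LBH, 3.44 CPM for KANK4 and 1.44 CPM for MYO7B. The library mut 24 h 1-1 was the highest of its group for LBH (24.4 CPM) and KANK4 (19.4 CPM). The library mut 6 h 65-2 was the lowest of its group for MYO7B, with 0.437 CPM. No WT library was marked.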

How the results depend on the processing

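The fitted size for KANK4 was smaller with edgeR and DESeq2 (3.75 and 3.71 at 72 h). LBH and KANK4 stayed higher in mut at 6, 24 and 72 h in each setting, past the threshold, with 1 exception: sums of the replications of a clone gave KANK4 3.65 at 6 h (adjusted p = 0.064). MYO7B stayed short of it at each time. The step from 6 to 24 h lost its calls most often. For LBH it was 0.80 with edgeR, 0.81 with DESeq2, without a low-count filter, with a mean count of at least 50 or with the compared groups alone, 0.76 with sums of replications and 0.63 without series 1-2. For KANK4 it was 1.18 with edgeR, 1.19 with DESeq2, 1.23 with no filter or a mean count of at least 50, 1.15 with sums and 0.98 without series 1-2. Leaving out single libraries gave 0.58 to 0.94 for LBH and 0.93 to 1.40 for KANK4, while for MYO7B from 24 to 72 h it gave -0.13 to 0.35, below 0 only without mut 72 h 65-2. The cause of these losses was not tested.

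The replicate block by series changed no call of the 3 genes, and gave 4.08 for LBH, 5.32 for KANK4 and 0.88 for MYO7B at 72 h. It moved the calls over all genes from 1041 to 2453 at 6 h, from 464 to 1722 for 6 to 24 h, and from 195 to 1404 for 24 to 72 h (with TMM 1950, 1577 and 1396). Sums of replications gave 196, 62 and 37, and 2140 in place of 3541 at 24 h. At 6 h edgeR gave 614 and the compared groups alone 452. For 24 to 72 h DESeq2 gave 416, and removal of series 1-2 or 27-2 gave 21 or 452, the latter also 745 for 6 to 24 h. Leaving out single libraries gave 226 to 1867 at 6 h, 2359 to 3851 at 24 h, 51 to 866 for 6 to 24 h and 34 to 347 for 24 to 72 h.

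Differences between mut clones changed sign with single solvent libraries. Clone 65 minus clone 1 ranged in solvent from -2.60 to 0.019 for LBH and -4.54 to 3.81 for KANK4. For the change it ranged for LBH from -0.30 to 2.32 at 24 h and -0.26 to 2.37 at 72 h, for KANK4 from -3.41 to 4.94 at 6 h, -4.05 to 4.30 at 24 h and -4.37 to 3.98 at 72 h (2.65 with edgeR), and for MYO7B from -0.41 to 1.27 at 6 h and -0.072 to 1.60 at 24 h. In solvent the 3 genes rest on 0 to 153 counts per library. Treated mut libraries had at least 247 counts of LBH and 127 of KANK4, but only 23 to 96 of MYO7B. For MYO7B in mut both ends of a fold thus rest on few counts.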
